A study of Mus musculus with 24 samples.

Results

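A group of 9 genes of acid–base handling was followed across 24 one-color oligonucleotide arrays of mouse fibroblasts, namely the bicarbonate transporters Slc4a2, Slc4a3, Slc4a4 and Slc4a7, the lactate carriers Slc16a1 and Slc16a3, and the carbonic anhydrases Car2, Car6 and Car9. They were chosen by gene symbol from known function, with earlier results of these data known, and all 9 are on the array, through 14 probes, among 18444 protein-coding genes and 41174 probes. Immortalized mouse embryonic fibroblasts (MEFs) of genotype Ku70-/- were used throughout, in which the end-joining gene Xrcc6 is deleted in controls and treated cells alike, and all groups grew in 10% CO2. In the first set of 15 arrays, cells were untreated (labeled 4 hr), or received 20 mM potassium bromate (KBrO3, an oxidant) for 1 hr and recovered for 3 or 23 hr, or were co-exposed. Co-exposed cells had 150 μM bisphenol A (BPA, a plasticizer component) from 1 hr before KBrO3 until harvest. The study's methods dissolve BPA in ethanol and describe no solvent control, so BPA and its solvent cannot be told apart. They give a wash and fresh medium after KBrO3 and describe none for untreated cells, so these steps and KBrO3 cannot be told apart either. The second set of 9 arrays holds its own untreated cells, with no time in the labels, and cells given only 150 μM BPA and labeled 4 or 24 hr, for which the study's methods give 1 hr more in BPA. Each of the 8 groups has 3 arrays, one per biological replicate, from one cell line on a single genetic background.

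Cells hold their internal pH by moving acid equivalents across the plasma membrane. Carbonic anhydrases interconvert CO2 and bicarbonate, SLC4 proteins carry bicarbonate in or out, and the monocarboxylate transporters of the SLC16 family carry lactate together with a proton. Among glycolytic cells, the membrane enzyme encoded by Car9 and the lactate exporter encoded by Slc16a3 are textbook targets of the hypoxia-inducible factors, whereas Car6 encodes a secreted enzyme best known from saliva.

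Levels below are log2 signals relative to the 75th percentile of the same array, and they compare arrays for 1 probe but not different probes. A gene is represented by its brightest probe, and a change was called when the limma p, adjusted by Benjamini-Hochberg across every probe tested in the set, was below 0.05 and the fold change exceeded 1.5. The share of spots well above background was 57.7% to 68.1% on arrays of the first set and 76.4% to 79.4% on those of the second, with a median residual SD per probe of 0.106 and 0.318. Fibroblast markers were well above background on every control array for 10 of 10 genes, whereas Ptprc, Pecam1, Des and Prol1, markers of blood, endothelial, muscle and salivary cells, were so on no array. Other markers of such cells were so on all 24 arrays, namely Cd68 and Ctsk of macrophages and osteoclasts, Tek of endothelium, Krt19 of epithelium, Acta1 of muscle, and Amy1 and Aqp5 of salivary cells. Of 20 markers of epithelial, macrophage, endothelial and muscle cells, 12 were tested in the first set. Against controls 5 were called higher and 0 lower with KBrO3 at 4 hr, 2 and 2 at 24 hr, 6 and 1 with co-exposure at 4 hr, and 2 and 5 at 24 hr. With BPA alone 0 of 16 were called higher at either time, and 0 and 1 were called lower at 4 and 24 hr. Of all genes tested, 43.9% and 33.7% were called with KBrO3 at 4 and 24 hr, 54.6% and 39.6% with co-exposure, and 4.68% and 4.31% with BPA alone. The part of these markers in the results was not tested. The Xrcc6 probe was well above background on all 24 arrays, and its place relative to the deletion is not given in the sources used here, so it checks no genotype. In RNA from whole cultures, fewer cells with a transcript and less transcript per cell cannot be told apart. At 24 hr after KBrO3 or co-exposure, 9 of 10 fibroblast markers were lower than in controls, and their summed level was 468 to 520 and 345 to 396 times the 75th percentile signal against 1060 to 1140 in controls. At 4 hr, 1 of 10 was lower with KBrO3 (sum 1010 to 1070) and 3 of 10 with co-exposure (sum 804 to 838). The part of these changes in the results was not tested. No control was kept for 24 hr in the first set, so in each 24 hr difference from controls the treatment and the longer culture cannot be told apart. In the second set the same controls, with no time in the labels, serve both times of BPA. There too, treatment and time in culture cannot be told apart at 4 hr, at 24 hr or at both.

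**Figure D1:**
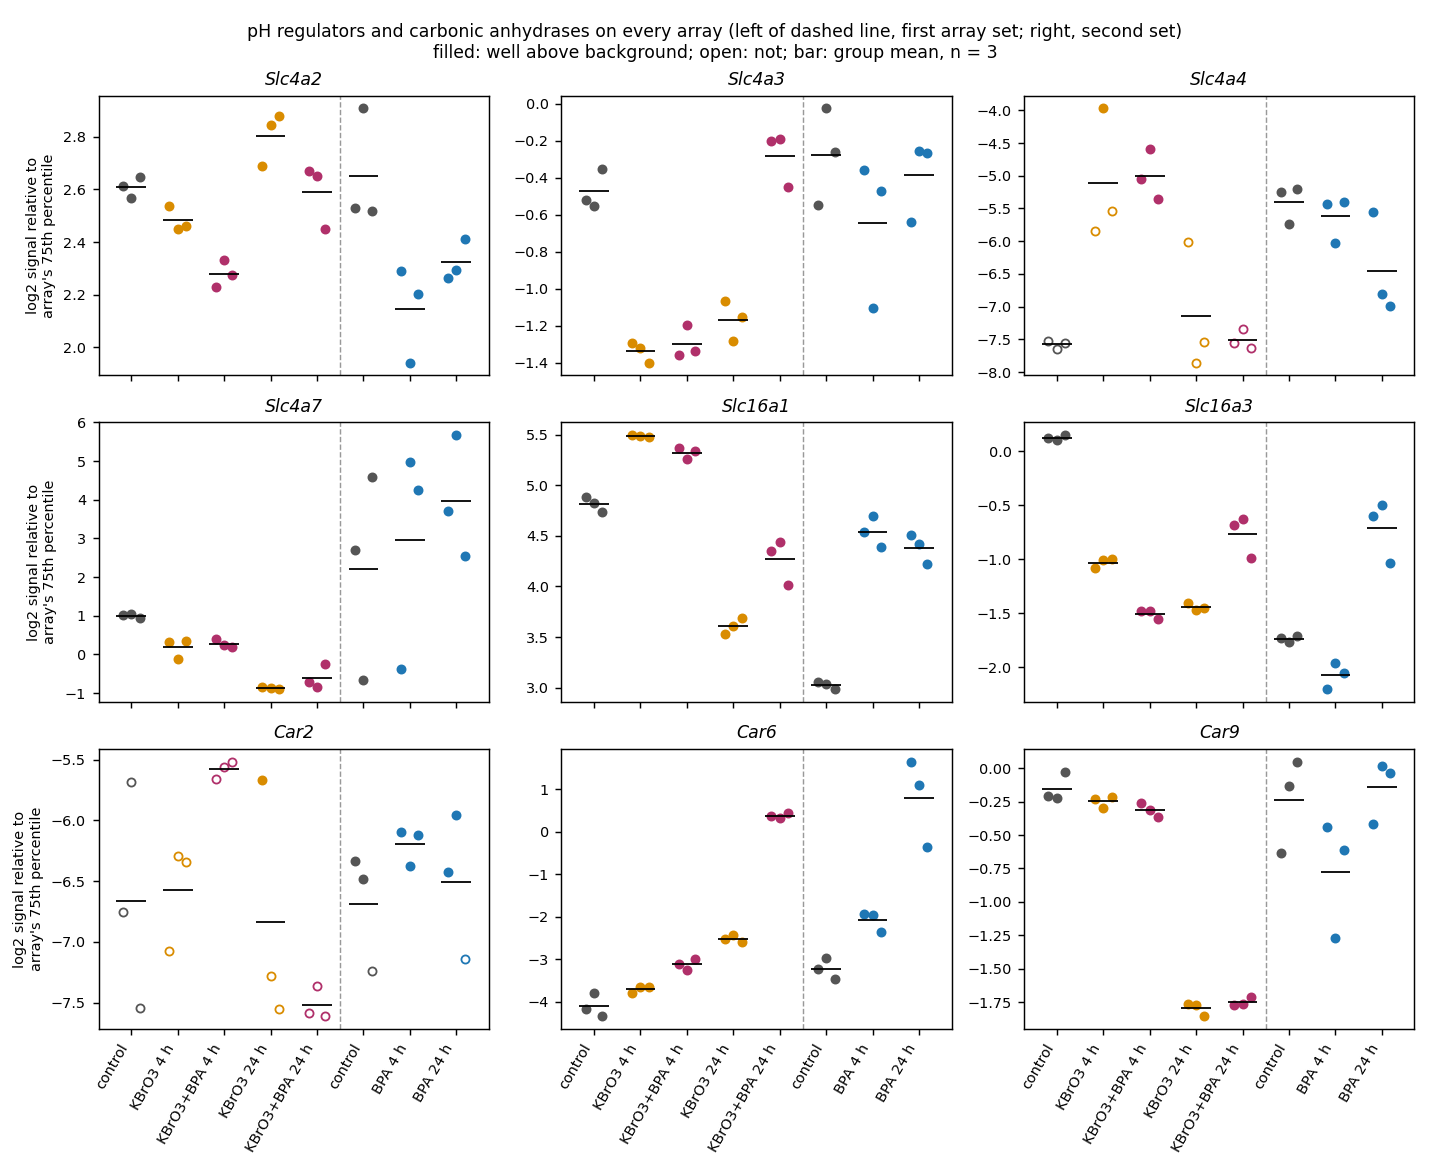
Log2 signal of each member (y axis, relative to the array's 75th percentile) on each of 24 arrays, by treatment group (x axis); points are arrays, bars are group means, and open points are not well above background. Car6 stands highest after 24 hr with BPA in both sets, Car9 and Slc4a7 stand low 24 hr after KBrO3, and Slc4a7 spreads from −0.66 to 4.58 within the second set's controls.

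Car6 showed the largest change of the 9 genes, and it went with BPA and time. Its mean stood above that of the controls in every treated group, by 22.1-fold after co-exposure at 24 hr and by 16.1-fold after BPA alone at 24 hr, although the differences for KBrO3 alone at 4 hr and BPA alone at 4 hr were not called. The former was called with slide as a fixed block (0.64), and the latter in a fit of only the 2 groups, in a fit of all 24 arrays, and without the third BPA array of 24 hr. On the 3 control arrays of the first set Car6 stood at −4.18, −3.78 and −4.34. It stood at −3.78, −3.66 and −3.66 after KBrO3 at 4 hr and at −3.12, −3.24 and −2.99 after co-exposure at 4 hr. By 24 hr it had reached −2.53, −2.42 and −2.58 with KBrO3 alone and 0.36, 0.31 and 0.43 with co-exposure. The 5 groups of the set followed each other in this order without a shared value, except that the lowest KBrO3 array at 4 hr only just exceeded the highest control. Against controls the log2 differences were 0.40 (SE 0.12, adjusted p = 0.0084) for KBrO3 at 4 hr, 1.59 (adjusted p = 1.6e-07) for KBrO3 at 24 hr, 0.98 (adjusted p = 7.1e-06) for co-exposure at 4 hr and 4.47 (adjusted p = 1.0e-11) for co-exposure at 24 hr. The first of these is 1.32-fold and falls below the fold threshold. With normexp background correction, whose fitted background mean lay far below 0 on 3 arrays, the first 3 values were −0.805, −0.35 and −0.53, and with the lowest 0.1% of spots left out of that fit they were 0.27, 0.87 and 0.52, the last no longer called.

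In the second set, where BPA was the only agent, Car6 stood at −3.22, −2.96 and −3.47 in controls, at −1.94, −1.96 and −2.34 after BPA at 4 hr and at 1.64, 1.10 and −0.36 after BPA at 24 hr. All 3 groups were separate, and the third array at 24 hr was well below the other two. The rise at 24 hr was 4.01 on the log2 scale (SE 0.44, adjusted p = 0.0041), and that at 4 hr was 1.14 with an adjusted p of 0.20. On the 2 slides that carried both a control and a 24 hr array, the difference was 4.60 and 4.57, and on the slide shared with 4 hr arrays it was 1.08. With slide as a block the adjusted p of the 24 hr rise was 0.068, so the call was lost while the difference was 4.58. With normexp it was 2.92 and not called either (adjusted p = 0.30).

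The Car6 difference that went with BPA on top of KBrO3 grew with time. Co-exposed cells exceeded KBrO3-only cells by 0.58 (SE 0.12, adjusted p = 0.0012, just below the fold threshold) at 4 hr and by 2.88 (adjusted p = 4.2e-09, 7.35-fold) at 24 hr, and the test of the change between these times gave 2.30 (SE 0.17, adjusted p = 1.0e-06). Within the slide that held 2 arrays of each group at 24 hr, the difference was 2.84. The effect of BPA in KBrO3-treated cells minus its effect alone, taken across both array sets, was −0.55 at 4 hr (SE 0.44, adjusted p = 0.46) and −1.13 at 24 hr (adjusted p = 0.24). The unadjusted 95% interval at 24 hr ran from −2.05 to −0.21, and that at 4 hr from −1.47 to 0.36. Without the third BPA array of 24 hr the difference at 24 hr was −1.71 and was called (adjusted p = 0.025). Salivary acinar cells are the best known source of Car6. Of their 5 markers, 2 were tested for KBrO3 and co-exposure and 3 for BPA alone, and none was called higher in any comparison with controls. Their summed level was 0.608 to 0.650 after co-exposure at 24 hr against 1.73 to 1.81 in controls, and 2.13 to 3.06 after BPA alone at 24 hr against 2.03 to 2.76.

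Car9, a membrane-bound carbonic anhydrase whose active site faces outward, was lower 24 hr after KBrO3, with or without BPA. At −0.21, −0.22 and −0.03 in controls, it stood at −0.23, −0.30 and −0.21 after KBrO3 at 4 hr and at −0.26, −0.31 and −0.36 after co-exposure at 4 hr. Neither group was called different from controls, with differences of −0.09 and −0.16 (SE 0.06, adjusted p = 0.15 and 0.022), although the co-exposed arrays did not overlap the controls. At 24 hr it stood at −1.76, −1.78 and −1.86 after KBrO3 and at −1.77, −1.77 and −1.71 after co-exposure, far below every other array of the set. The fall was 3.13-fold for KBrO3 (log2 −1.64, SE 0.06, adjusted p = 1.7e-10) and 3.02-fold for co-exposure (log2 −1.60, adjusted p = 1.3e-10). BPA added to KBrO3 made no called difference for Car9, with −0.06 at 4 hr (95% interval −0.18 to 0.06) and 0.05 at 24 hr (−0.07 to 0.17). A 1.5-fold change in either direction lies outside both intervals. With BPA alone Car9 stood between −1.27 and −0.44 at 4 hr and between −0.41 and 0.02 at 24 hr, against −0.64 to 0.05 in that set's controls. The differences of −0.53 and 0.10 (SE 0.28) had adjusted p-values of 0.35 and 0.90.

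Promoters of Car6 and Car9 are printed from RefSeq (GRCm38.p6) because these 2 enzymes of one family moved in opposite directions 24 hr after KBrO3. Each runs from 250 bases before to 50 bases after the start, on the strand of the gene, at chr4:150201086-150201385 (minus strand) for Car6 and chr4:43506776-43507075 (plus strand) for Car9. Promoter entries were found for 8 of the 9 members, and Car2 had no entry. Capitals mark matches on either strand to 5 short motifs, which overlap where stated. The core of the hypoxia response element was searched as ACGTG and as GCGTG. The E-box was searched as CACGTG, which contains the first of these. The AP-1 site was searched as TGACTCA. The core of the antioxidant response element was searched as TGACNNNGC.
Car6 promoter: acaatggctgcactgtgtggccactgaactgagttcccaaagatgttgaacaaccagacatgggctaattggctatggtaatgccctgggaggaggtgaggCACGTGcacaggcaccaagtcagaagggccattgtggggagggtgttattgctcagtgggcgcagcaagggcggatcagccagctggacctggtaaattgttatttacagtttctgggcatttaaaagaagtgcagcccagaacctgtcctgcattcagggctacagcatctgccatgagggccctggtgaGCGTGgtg
Car9 promoter: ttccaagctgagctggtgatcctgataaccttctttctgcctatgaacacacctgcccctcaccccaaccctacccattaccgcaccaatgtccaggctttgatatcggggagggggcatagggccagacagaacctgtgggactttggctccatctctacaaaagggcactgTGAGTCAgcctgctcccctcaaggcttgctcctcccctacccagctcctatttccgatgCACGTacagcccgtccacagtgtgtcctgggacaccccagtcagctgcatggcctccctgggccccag
Of all 32851 promoters of the same length in that table, 19.6% hold ACGTG, 32.4% GCGTG, 7.15% CACGTG, 5.2% TGACTCA and 12.4% TGACNNNGC. Car9 has 1 ACGTG, read on the minus strand, whose leftmost base lies at position −18, and 1 TGACTCA at −77. Car6 has an E-box at −149, which is also its ACGTG match on both strands, and a GCGTG at position 43. Such letters are common, and a match is a description and not a site in use.

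Car2, the fast cytosolic carbonic anhydrase, was too dim to follow in the first set. It was well above background on 1 of those 15 arrays, with values between −7.61 and −5.52, so it was not tested there. In the second set it was well above background on 7 of 9 arrays and stood between −7.24 and −6.34 in controls, −6.38 and −6.09 after BPA at 4 hr and −7.14 and −5.95 after BPA at 24 hr. The groups overlapped, and the differences from controls of 0.49 and 0.18 (SE 0.34) had adjusted p-values of 0.48 and 0.83.

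Slc16a1 encodes MCT1, a widely expressed carrier that moves lactate and a proton in either direction. Its direction depended on agent and time. It was higher than in controls 4 hr after KBrO3, lower 24 hr after KBrO3, and higher at both times with BPA alone. In the first set it stood at 4.88, 4.82 and 4.74 in controls and at 5.49, 5.48 and 5.48 after KBrO3 at 4 hr. It then stood at 3.53, 3.61 and 3.69 after KBrO3 at 24 hr. These 3 groups were far apart, with a rise of 1.59-fold at 4 hr (log2 0.67, SE 0.09, adjusted p = 2.4e-05) and a fall of 2.31-fold at 24 hr (log2 −1.21, adjusted p = 1.9e-07). Within the one slide that held a control and the KBrO3 arrays of 4 hr, the rise was 0.75, but it was 0.32 under quantile normalization and 0.47 as the mean of the gene's 3 probes, and then no longer beyond 1.5-fold.

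Co-exposed cells stood at 5.36, 5.26 and 5.34 at 4 hr and at 4.35, 4.43 and 4.01 at 24 hr, on the same side of the controls as KBrO3 alone but nearer to them at 24 hr. Neither difference from controls was called, since 0.51 and −0.55 are 1.42-fold and 1.46-fold, with adjusted p-values of 0.00025 and 0.00016. The latter was called after any one of 3 arrays was left out, with values down to −0.63. Relative to KBrO3 alone, co-exposure gave −0.16 at 4 hr (SE 0.09, adjusted p = 0.14) and 0.66 at 24 hr (adjusted p = 8.9e-05, 1.58-fold), and the change between times was 0.82 (SE 0.13, adjusted p = 0.00026). The 24 hr difference was 0.57, below the fold threshold, without the second co-exposed array, 0.58 under quantile normalization and 0.50 as the mean of 3 probes. Within the slide that held both groups at 24 hr it was 0.75.

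With BPA alone Slc16a1 stood at 4.54, 4.70 and 4.39 at 4 hr and 4.51, 4.41 and 4.23 at 24 hr, above all 3 controls of the second set at 3.06, 3.04 and 2.98. It rose 2.85-fold at 4 hr (log2 1.51, SE 0.18, adjusted p = 0.0027) and 2.56-fold at 24 hr (log2 1.36, adjusted p = 0.0063), with 1.40, 1.47 and 1.43 within the 3 slides that held a control and a treated array. With slide as a block these adjusted p-values were 0.23 and 0.084. The BPA effect with KBrO3 minus the BPA effect alone was −1.68 at 4 hr (SE 0.25, adjusted p = 0.00026) and −0.70 at 24 hr (adjusted p = 0.18). The other probes gave −1.24 (adjusted p = 0.0025) and −0.80 (adjusted p = 0.30) at 4 hr. In this test the array set, with its own controls, time of BPA and extraction software, and the presence of KBrO3 cannot be told apart.

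With BPA alone the second probe rose at both times (1.52 and 1.28, adjusted p = 0.0044 and 0.012), while the third overlapped the controls and was not called (1.17 and 1.58, adjusted p = 0.31 and 0.18). The other 2 Slc16a1 probes gave the same direction against controls in all 4 treated groups of the first set. They gave 0.61 and 0.12 for KBrO3 at 4 hr, −0.93 and −1.23 for KBrO3 at 24 hr, 0.90 and 0.48 for co-exposure at 4 hr, and −0.42 and −0.89 for co-exposure at 24 hr. The rise with co-exposure at 4 hr was called on the first of these probes and the fall at 24 hr on the second. On the probe with 0.12, the KBrO3 arrays at 4 hr overlapped the controls. The difference of co-exposure from KBrO3 at 4 hr, −0.16 on the representative probe, had the other sign on both, at 0.29 (adjusted p = 0.0095) and 0.36 (adjusted p = 0.0021). The gain of co-exposure over KBrO3 at 24 hr was 0.51 and 0.34, called with neither, and the change of that gain from 4 hr was 0.23 and −0.02, so the growth with time rests on the brightest probe.

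**Figure D2:**
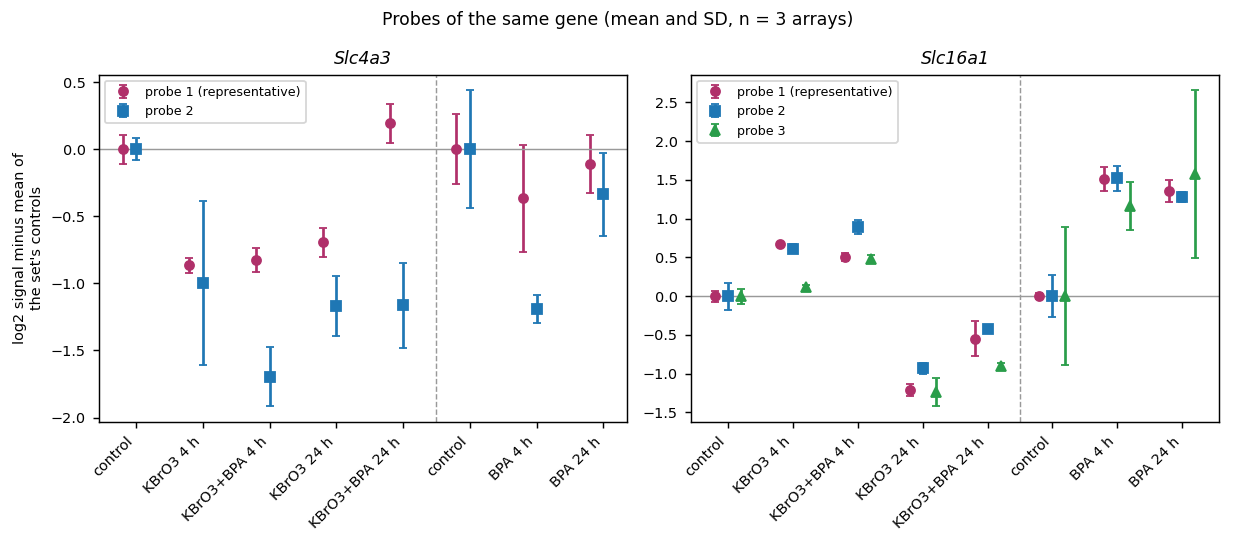
Log2 signal minus the mean of the set's own controls (y axis) for the probes of Slc4a3 and Slc16a1, by group (x axis); points are means and bars SDs over 3 arrays. For Slc4a3 after co-exposure at 24 hr, the representative probe lies at 0.19 and the second probe at −1.16.

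Slc16a3 encodes MCT4, the carrier that glycolytic cells use to export lactate. It fell in all 4 comparisons of the first set with controls, and at 24 hr it was higher with BPA than without, in both sets. Controls stood at 0.12, 0.11 and 0.15. Arrays of 4 hr stood at −1.083, −1.011 and −1.002 with KBrO3 and at −1.48, −1.48 and −1.56 with co-exposure. Arrays of 24 hr stood at −1.40, −1.47 and −1.46 with KBrO3 and at −0.69, −0.62 and −0.99 with co-exposure. The controls were separate from all 12 treated arrays. The falls were 2.23-fold (KBrO3, 4 hr, adjusted p = 3.0e-08), 3.09-fold (co-exposure, 4 hr, adjusted p = 1.0e-09), 2.97-fold (KBrO3, 24 hr, adjusted p = 4.1e-09) and 1.86-fold (co-exposure, 24 hr, adjusted p = 5.0e-07), each with an SE of 0.08 on the log2 scale. The last was 0.58 on the log2 scale and under the fold threshold when arrays were scaled to their medians.

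With BPA on top of KBrO3, Slc16a3 was called higher at 24 hr, while its lower value at 4 hr was not called. The difference from KBrO3 alone was −0.47 at 4 hr (adjusted p = 0.00028, 1.39-fold and not called) and 0.68 at 24 hr (adjusted p = 1.8e-05, 1.60-fold), with no overlap of arrays at either time. The change between the times was 1.15 (SE 0.11, adjusted p = 7.4e-06), and the 24 hr difference was 0.81 within the shared slide. In the second set BPA alone gave −2.21, −1.97 and −2.06 at 4 hr and −0.60, −0.50 and −1.04 at 24 hr, against −1.73, −1.77 and −1.71 in controls. All BPA arrays at 4 hr were below the controls and all at 24 hr above them, with differences of −0.34 (SE 0.20, adjusted p = 0.40) and 1.03 (adjusted p = 0.026, 2.04-fold). The rise at 24 hr was 1.17 and 1.21 within the 2 slides that held both groups. Its adjusted p was 0.097 with slide as a block, between 0.063 and 0.090 after 6 of the 9 possible omissions of 1 array, and 0.11 in a fit of these 2 groups alone. The BPA effect with KBrO3 minus that alone was −0.13 at 4 hr and −0.35 at 24 hr (SE 0.22, adjusted p = 0.76 and 0.62).

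Promoters of the 2 lactate carriers are printed because their genes share a function but moved apart 4 hr after KBrO3. They come from the same RefSeq table and are marked in the same way, at chr3:104638414-104638713 for Slc16a1 and chr11:120948817-120949116 for Slc16a3, both on the plus strand.
Slc16a1 promoter: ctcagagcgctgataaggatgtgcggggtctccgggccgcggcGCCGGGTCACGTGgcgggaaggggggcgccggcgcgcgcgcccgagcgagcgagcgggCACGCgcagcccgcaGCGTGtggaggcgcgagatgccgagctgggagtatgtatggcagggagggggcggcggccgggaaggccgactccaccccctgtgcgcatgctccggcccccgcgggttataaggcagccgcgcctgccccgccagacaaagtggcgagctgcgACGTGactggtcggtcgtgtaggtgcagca
Slc16a3 promoter: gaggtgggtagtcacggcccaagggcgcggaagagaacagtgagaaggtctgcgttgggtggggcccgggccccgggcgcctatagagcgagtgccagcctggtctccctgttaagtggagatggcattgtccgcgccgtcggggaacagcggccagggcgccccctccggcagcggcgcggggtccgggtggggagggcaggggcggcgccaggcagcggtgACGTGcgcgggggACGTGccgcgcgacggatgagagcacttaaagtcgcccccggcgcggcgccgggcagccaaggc
Slc16a3 has 2 ACGTG matches, at −27 and −14, and none of the other motifs. Slc16a1 has an E-box at −200, which overlaps a TGACNNNGC match at −207, a further ACGTG at position 21, and GCGTG matches at −149 and −134.

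Slc4a7 encodes an electroneutral sodium bicarbonate cotransporter that brings base into the cell. It fell after KBrO3 and after co-exposure, further at 24 hr than at 4 hr. From 1.01, 1.04 and 0.93 in controls it stood at 0.33, −0.11 and 0.35 after KBrO3 and at 0.40, 0.25 and 0.19 after co-exposure at 4 hr. At 24 hr it stood at −0.84, −0.86 and −0.91 after KBrO3 and at −0.72, −0.84 and −0.25 after co-exposure. Controls, 4 hr groups and 24 hr groups did not overlap. The falls were 1.75-fold and 1.64-fold at 4 hr (SE 0.15, adjusted p = 0.00032 and 0.00071) and 3.64-fold and 3.02-fold at 24 hr (adjusted p = 2.9e-07 and 9.4e-07). BPA added 0.09 and 0.27 to KBrO3 at 4 and 24 hr, with adjusted p-values of 0.64 and 0.16.

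In the second set the same probe could not resolve any effect. It stood at 2.69, −0.66 and 4.58 in controls, at −0.38, 4.99 and 4.25 after BPA at 4 hr and at 3.71, 5.67 and 2.55 after BPA at 24 hr, well above background each time. Only 2 of 31809 probes tested had a larger residual SD in that set than its 2.45. The differences of 0.75 and 1.77 therefore had an SE of 1.62 and adjusted p-values of 0.83 and 0.61, and fitting all 24 arrays together took away the calls in the first set too, with adjusted p-values of 0.20 to 0.60 against controls.

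Slc4a3 encodes AE3, which exchanges chloride for bicarbonate and so loads acid. By its representative probe it was lower in 3 of the 4 treated groups of the first set and back at the control level after co-exposure at 24 hr. Controls stood at −0.52, −0.55 and −0.35. With KBrO3 it stood at −1.29, −1.32 and −1.40 at 4 hr and −1.07, −1.28 and −1.15 at 24 hr, falls of 1.82-fold (adjusted p = 1.2e-06) and 1.62-fold (adjusted p = 1.4e-05, log2 −0.54 and not called when scaled to medians). With co-exposure it stood at −1.36, −1.19 and −1.34 at 4 hr and −0.20, −0.19 and −0.45 at 24 hr. The former was a 1.77-fold fall, and the latter overlapped the controls (0.19, SE 0.08, adjusted p = 0.059). Co-exposure exceeded KBrO3 alone at 24 hr by 0.89 (adjusted p = 4.4e-06, 1.02 within the shared slide) and not at 4 hr (0.04, adjusted p = 0.70), a change of 0.85 (SE 0.12, adjusted p = 0.00014).

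The second Slc4a3 probe disagreed at that point. It lay at −3.01, −3.06 and −3.17 in controls and at −4.49, −3.89 and −4.36 after co-exposure at 24 hr, a fall of 2.24-fold (adjusted p = 0.0016), with a difference of 0.00 (SE 0.26) from KBrO3 alone. At 4 hr it was lower with co-exposure than with KBrO3 alone, by −0.70 (adjusted p = 0.036). It also fell with BPA alone at 4 hr (log2 −1.19, SE 0.26, adjusted p = 0.037), where the representative probe gave −0.37 (adjusted p = 0.48). The return to the control level with co-exposure was therefore seen on 1 of the 2 probes.

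Slc4a4 encodes NBCe1, an electrogenic sodium bicarbonate cotransporter. Its representative probe rose well above background on none of the first set's control arrays and none of the 24 hr arrays with KBrO3 or co-exposure. It did so on 1 of 3 arrays of KBrO3 and 3 of 3 of co-exposure at 4 hr. Measured values were −7.52, −7.64 and −7.55 in controls, −5.84, −3.97 and −5.54 for KBrO3 and −5.05, −4.59 and −5.35 for co-exposure at 4 hr. These 4 hr groups were separate from controls. Since the probe was tested only because the co-exposed arrays of 4 hr were bright, its calls at that time follow in part from that choice. Set against the dimmest signal well above background on each control array, co-exposure at 4 hr was at least 1.43-fold higher than controls. For KBrO3 no bound is given, since 2 of its 3 arrays were not well above background. With normexp the differences from controls at 4 hr were −0.81 for KBrO3 and −0.80 for co-exposure, and without the lowest spots that for co-exposure was 0.50 and not called. With slide as a random block the difference for co-exposure was 1.87 with an adjusted p of 0.069. With BPA alone it was dim but measured on all 9 arrays, at −5.74 to −5.20 in controls, −6.03 to −5.40 at 4 hr and −6.99 to −5.55 at 24 hr, and the differences of −0.23 and −1.06 (SE 0.38) had adjusted p-values of 0.78 and 0.18. Without the first BPA array of 24 hr the latter was −1.50 with an adjusted p of 0.041. The gene's other 2 probes were well above background on 1 and 0 of 24 arrays.

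The 60-base probes behind the Slc4a3 and Slc4a4 values are shown because the probes of the first gene disagreed at 24 hr, and 1 of the 3 probes of the second was bright enough to be tested. The array files place them in mm7 at chr1:75783509-75783568 and chr5:89168830-89168889. For Slc4a3 the second probe lies at chr1:75787430-75787489, and for Slc4a4 the others lie at chr5:89208773-89208832 and chr5:89211145-89211204.
Slc4a3 probe: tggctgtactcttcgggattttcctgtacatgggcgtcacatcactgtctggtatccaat
Slc4a4 probe: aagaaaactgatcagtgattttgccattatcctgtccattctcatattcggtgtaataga

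Slc4a2 encodes AE2, the widely expressed chloride/bicarbonate exchanger, and it was called in no comparison, although between 4 and 24 hr it was called for co-exposure when scaled to medians (0.77) and for KBrO3 under quantile normalization (0.59). Controls of the first set stood at 2.57 to 2.65, and the 4 treated groups between 2.23 and 2.88. Its differences from controls ran from −0.33 (co-exposure, 4 hr, SE 0.07, adjusted p = 0.00059) to 0.19 (KBrO3, 24 hr, adjusted p = 0.022). BPA alone gave −0.51 at 4 hr (SE 0.19, adjusted p = 0.19) and −0.33 at 24 hr (adjusted p = 0.41), with every BPA array below every control.

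**Figure D3:**
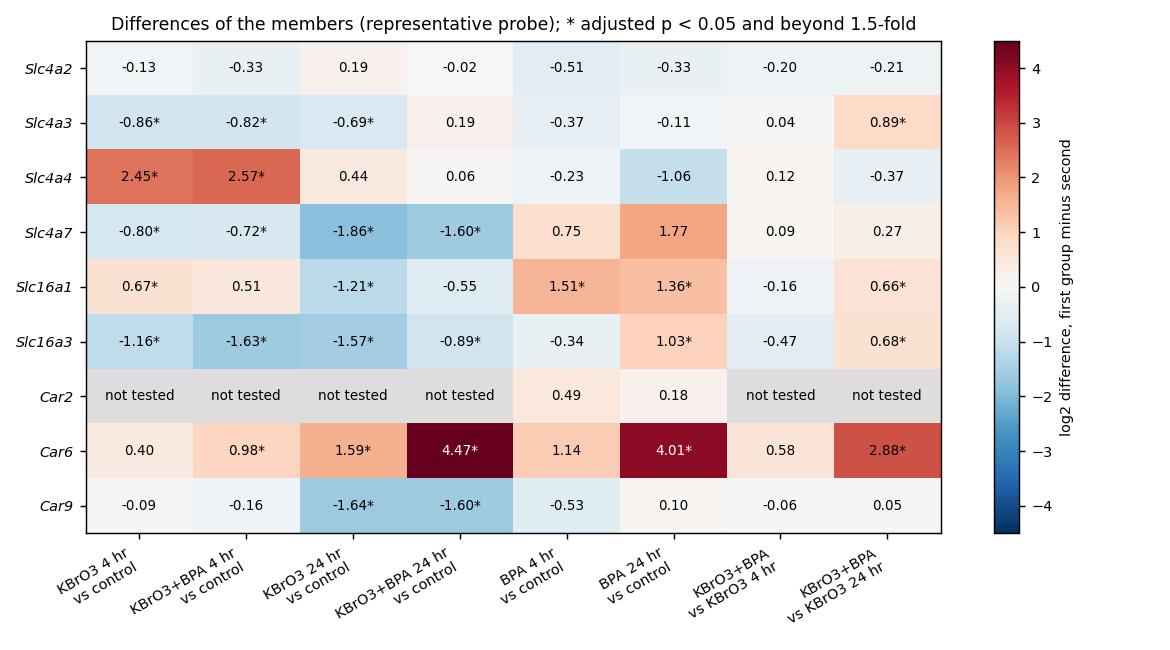
Log2 difference (color and number, first group minus second) of each member, in rows, for 8 comparisons, in columns; an asterisk marks an adjusted p below 0.05 with more than a 1.5-fold change. Car6 reaches 4.47 and 4.01 at 24 hr with BPA, whereas Slc4a2 stays between −0.51 and 0.19 against controls.

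Counted over the members tested, 5 of 8 were called against controls after KBrO3 at 4 hr (2 higher, 3 lower), where 43.9% of 14106 protein-coding genes tested were called. After KBrO3 at 24 hr, 6 of 8 were called (1 higher, 5 lower), against 33.7% of genes. After co-exposure, 5 of 8 were called at 4 hr (2 higher, 3 lower) against 54.6%, and 4 of 8 at 24 hr (1 higher, 3 lower) against 39.6%. With so many genes called, the members' counts at 4 hr are close to the background. Counting only the 7 members with an array well above background in both groups, which leaves out Slc4a4, 4 were called at 4 hr with KBrO3 and 4 with co-exposure. The median difference of the members from controls was −0.11 and −0.95 with KBrO3 at 4 and 24 hr, −0.24 and −0.28 with co-exposure, and −0.23 and 0.18 with BPA alone, where that of all genes tested lay between −0.07 and 0.02. With BPA alone 1 of 9 was called at 4 hr and 3 of 9 at 24 hr, all higher, where 4.68% and 4.31% of 15748 genes were called. Between 4 and 24 hr, 5 of 8 were called with KBrO3 (47.8% of genes), 7 of 8 with co-exposure (57.5%) and 2 of 9 with BPA alone (4.30%). Without Slc4a4 the first 2 of these were 4 and 6 of 7. At a Bonferroni-adjusted p below 0.01 with the same fold, members called against controls numbered 1 and 5 with KBrO3 at 4 and 24 hr (31.2% and 20.0% of genes) and 1 and 4 with co-exposure (35.9% and 23.8%). With BPA alone they numbered 0 at both times (0.114% and 0.0318%), while 3 and 4 of 9 had an unadjusted limma p below 0.05, as did 20.2% and 20.8% of genes.

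For co-exposure against KBrO3 alone, none of 8 members was called at 4 hr by limma, where 19.6% of genes were, since Car6, Slc16a3 and Slc4a2 had an adjusted p below 0.05 but less than a 1.5-fold change. These 3 of 8 were also the members with an unadjusted p below 0.05, where 65.1% of genes had one. At 24 hr 4 of 8 were called, namely Car6, Slc4a3, Slc16a1 and Slc16a3, all higher with BPA, where 14.2% of genes were called and 925 of the 1996 called were higher. The change of this difference from 4 to 24 hr was called for the same 4 genes, all upward, against 26.6% of genes. Between the BPA effect with KBrO3 and that alone, 1 of 8 differed at 4 hr (Slc16a1, 9.41% of genes) and 0 of 8 at 24 hr (3.35%), with 3 of these 8 and 15.3% of genes at an unadjusted p below 0.05. The comparisons at one time share their KBrO3 arrays or their controls, so their values are given side by side and not as independent evidence.

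**Figure D4:**
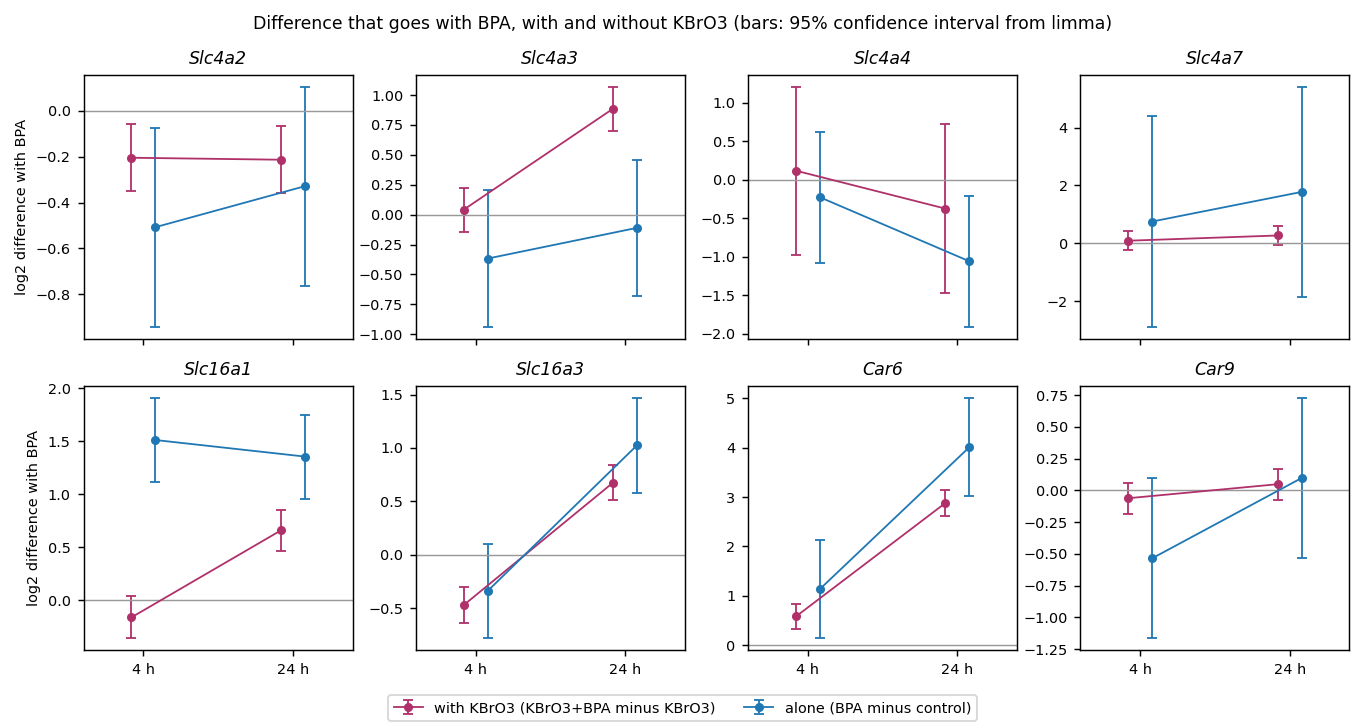
Log2 difference that goes with BPA on the representative probe (y axis) at 4 and 24 hr (x axis) for 8 members, with KBrO3 (co-exposure minus KBrO3) and alone (BPA minus control); bars are 95% confidence intervals. For Slc16a1 at 4 hr the values are −0.16 with KBrO3 and 1.51 alone, and for Car6 at 24 hr they are 2.88 and 4.01.

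Other genes of pH regulation were taken from 8 lists. Across all genes tested, the median difference from controls was between −0.07 and 0.02 in every comparison. Genes given below as at least so many times higher than controls were dim there and were tested because treated arrays were bright, so that their calls follow in part from that choice. Genes measured on only some control arrays were likewise tested because of treated arrays, and the same limit holds for their rises. Counts of a list are to be read against the share of all genes called in the same comparison, which was 43.9% and 33.7% with KBrO3 at 4 and 24 hr, 54.6% and 39.6% with co-exposure, and 4.68% and 4.31% with BPA alone. Of 14 further SLC16 carriers and MCT chaperones on the array, 10 were tested in the first set. Against controls 3 rose and 1 fell with KBrO3 at 4 hr and 2 rose and 5 fell at 24 hr, while co-exposure raised 5 and lowered 2 at 4 hr and raised 3 and lowered 5 at 24 hr. Slc16a6 rose by 3.17 on the log2 scale (from −2.75 ± 0.04 to 0.42 ± 0.03, SD, n = 3) and Slc16a10, an aromatic amino acid carrier, 7.38-fold with co-exposure at 4 hr. Slc16a4 dropped below background with co-exposure at 24 hr and was at least 2.33-fold lower. Bsg, whose product basigin escorts MCT1 and MCT4 to the membrane, stayed within −0.31 to 0.15 of controls in the first set and was not called. With BPA alone 4 of 11 rose at 4 hr and 1 fell at 24 hr.

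Among 13 further carbonic anhydrases, 9 were tested in the first set. With KBrO3, 1 rose and 1 fell at each time, and with co-exposure 4 rose and 2 fell at 4 hr and 3 rose and 3 fell at 24 hr. Car10, an inactive relative, went from below background in controls to well above on 3 of 3 co-exposed arrays at 4 hr and was at least 4.03-fold higher, and Car15 was higher by 1.30 on the log2 scale. Car11, another inactive relative, fell 2.30-fold at that time, and Car14 fell 2.32-fold at 24 hr with an adjusted p of 0.049. With BPA alone 1 of 12 was called, lower at 4 hr, and none at 24 hr. In that comparison no other member of the family was called higher beside Car6, although for Car12 the difference was 1.06 (SE 0.30, adjusted p = 0.096).

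The lactate and hypoxia-linked list has 12 genes, all tested. Against controls 4 rose and 1 fell with KBrO3 at 4 hr and 1 rose and 7 fell at 24 hr, with a median difference of −0.96 at the latter. Co-exposure raised 5 and lowered 2 at 4 hr and raised 3 and lowered 4 at 24 hr. BPA alone raised 1 at 4 hr and raised 3 and lowered 1 at 24 hr. Vegfa, an angiogenic growth factor, rose 13.0-fold with co-exposure at 4 hr (2.18 ± 0.01 to 5.87 ± 0.05), and Adm, the vasodilator adrenomedullin, fell 8.16-fold with co-exposure at 24 hr. Epas1, which encodes a hypoxia-inducible factor subunit, fell in the same comparison from −3.18 ± 0.05 to −5.47 ± 0.45, a signal well above background on 1 of 3 arrays, and Ankrd37 rose 3.93-fold with BPA alone at 24 hr (adjusted p = 0.0079). Ldha, the lactate-forming enzyme that feeds both carriers, differed from controls by −0.48 to 0.13 in the first set and was not called.

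Of 14 sodium/proton exchangers and regulators on the array, 8 were tested in the first set. With KBrO3 1 rose and 2 fell at 4 hr and 1 rose at 24 hr, and with co-exposure 2 rose and 2 fell at 4 hr and none was called at 24 hr. The scaffold genes Slc9a3r2 and Slc9a3r1 fell 2.97-fold and 2.49-fold with co-exposure at 4 hr. Both were also called lower with KBrO3 alone at 4 hr, by 2.38-fold and 1.68-fold, and Slc9a3r2 with BPA alone at 4 hr, by 2.055-fold. Slc9a2 was at least 2.61-fold higher with KBrO3 at 4 hr, from below background. The rise counted with KBrO3 at 24 hr and 1 of the 2 with co-exposure at 4 hr were also Slc9a2, on arrays where neither group was well above background. Slc9a8 rose 1.72-fold with co-exposure at 4 hr. With BPA alone 1 of 12 fell at 4 hr and none was called at 24 hr. Among the other SLC4 transporters, 4 of 5 were tested, and 2 rose and 1 fell against controls with co-exposure at 4 hr. In the other 5 comparisons with controls 0 were called. Slc4a1, the red cell anion exchanger, rose by 2.01 on the log2 scale, Slc4a5 was at least 2.41-fold higher and Slc4a8 fell 1.72-fold.

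Of 25 subunits and partners of the V-type ATPase, the proton pump of lysosomes, 20 were tested in the first set. Higher and lower calls numbered 7 and 0 with KBrO3 at 4 hr, 3 and 1 at 24 hr, 4 and 0 with co-exposure at 4 hr, and 4 and 2 at 24 hr, and BPA alone gave 1 and 0 of 22 at each time. Atp6v0e2 rose 4.18-fold and Atp6v1e2 and Atp6v0a1 fell 2.04-fold and 1.57-fold with co-exposure at 24 hr. Atp6v1c2 was at least 2.91-fold higher with BPA alone at 4 hr. Of 7 SLC26 anion exchangers tested, 2 rose and 2 fell with KBrO3 at 4 hr, 4 fell at 24 hr, and co-exposure raised 3 and lowered 2 at 4 hr and raised 2 and lowered 2 at 24 hr. Slc26a5 was at least 1.84-fold higher with co-exposure at 4 hr. Slc26a3, measured on 1 of 3 control arrays, fell from −5.11 ± 1.22 to −6.94 ± 0.83, not well above background, at 24 hr. With BPA alone Slc26a4, measured on 1 of 3 control arrays, rose from −7.41 ± 0.43 to −5.02 ± 0.46 at 4 hr, as 1 of 10 called, and Slc26a7 fell 9.99-fold at 24 hr, as 1 of 2 that fell. Of 5 proton sensors and channels tested, 2 fell with KBrO3 at 24 hr, 1 rose and 1 fell with co-exposure at 4 and 24 hr respectively, and none was called with KBrO3 at 4 hr. Hvcn1, a voltage-gated proton channel, fell 2.33-fold with KBrO3 at 24 hr, and Atp12a was at least 2.23-fold lower with co-exposure at 24 hr. Atp4a, a proton pump subunit of gastric cells, was measured on 2 of 3 control arrays and rose by 1.21 on the log2 scale with co-exposure at 4 hr. Gpr65, a proton-sensing receptor measured on 2 of 3 control arrays, rose 2.47-fold with BPA alone at 4 hr, as 1 of 10.

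**Figure D5:**
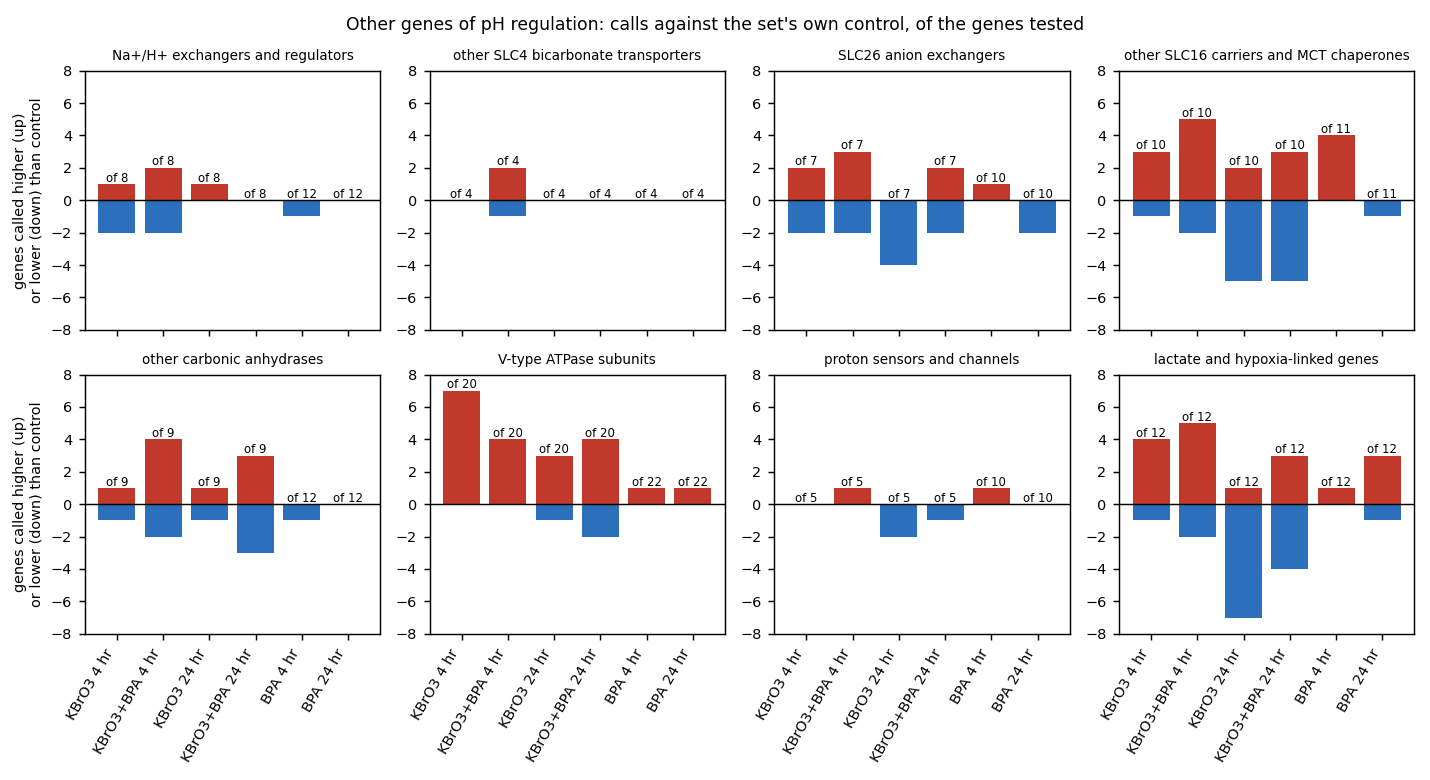
Number of genes called higher (above 0) or lower (below 0) than the set's own controls (y axis) in 8 lists of pH-related genes, for 6 treatments (x axis); the number tested stands above each bar. The lactate and hypoxia-linked list has 7 of 12 lower after KBrO3 at 24 hr.

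The genes whose profiles most resembled each member's were sought over the 24 arrays, each expressed relative to the controls of its set, among 14040 protein-coding genes tested in both sets. The arrays share treatments and controls, so Pearson's r is a description. Slc16a1 was closest to Sphk1 (r = 0.976), Cebpb (0.968) and Batf3 (0.963), and Car6 to Cox6a2 (0.975), Setd6 (0.966) and Aig1 (0.962). Car9 was closest to Lpl (0.969), Nucb2 (0.966) and Ggt5 (0.966), and Slc16a3 to Ikbkg (0.959), Tmem50a (0.958) and Cnrip1 (0.958). For Slc4a4 these were Hes2 (0.954), Aplnr (0.923) and Abo (0.923), and for Slc4a2 Scaf1 (0.929), Gpt (0.927) and Trpv2 (0.927). The Slc4a4 probe was well above background on 4 of 15 arrays of the first set. It was tested there only because co-exposed arrays of 4 hr were bright, so its r values follow in part from that choice. Slc4a3 had Tbc1d9b (0.900), Fndc4 (0.896) and Ttc38 (0.896), and Slc4a7 had Wtap (0.898), Ehmt1 (0.879) and Hacd3 (0.872).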

How the data were processed

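RNA from 24 cultures was hybridized to one-color mouse 44K arrays. Per the labels and the file headers, the authors deposited scanner intensity values made with Agilent Feature Extraction (12.0 in the submitters' processing notes, 9.5.3.1 and 12.0.0.7 in the headers of the first and second set), and the background-subtracted processed intensity was used here. The table the authors deposited holds the same intensity values. Outlier spots were dropped, log2 intensity was set relative to the 75th percentile of 43379 non-control spots on each array, and spots of a probe were averaged. Probes were named from RefSeq tables (32737 of 41174 probes). Tests covered probes that stood well above background on all arrays of some group in the set (27310 and 31809 probes), and a lower bound used the dimmest well measured signal of each array. Differences were fitted per set with limma 3.58.1 (R 4.3.3) over all groups of the set, and the contrast between sets with array weights by set (2.29 and 0.251). Fits were tested on simulated data. Sequences and figures were made with Python 3.11.15, pandas 2.3.3 and matplotlib 3.10.9.

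From each list the 2 largest called rises and falls against controls were named, each in the comparison where it was largest. Calls of the same genes in other comparisons are mostly left out. For each member the 3 genes with the highest r were named. Some items that this rule names are not reported here. Bsg, Ldha and Car12 were added after their values were seen. Members and lists were chosen with earlier results of these data known. Array sets were never compared directly in level, slides within a set were examined as batches where possible, and the number of arrays limits precision. Slide as a fixed block could be fitted for 51 of 99 member values within sets. In the first set it gave no value against controls for KBrO3 at 24 hr or for co-exposure at 4 or 24 hr. It gave none for co-exposure against KBrO3 at 4 hr, for KBrO3 between times or for the change of the BPA difference. In these comparisons that fit did not separate slide from treatment for any member. Replicate numbers did not pair the samples on average. Not used here were the proteins of the members, for which no sequences were given.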

Additional observations from a re-analysis of the deposited data

Results flagged for a closer look

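For 4 members the difference between co-exposed and KBrO3-only cells changed between 4 and 24 hr by the interaction test across all probes (limma, Benjamini-Hochberg). For Car6 the change was 2.30 on the log2 scale (adjusted p = 1.0e-06) and for Slc16a3 it was 1.15 (adjusted p = 7.4e-06), and all 3 co-exposed arrays exceeded all 3 KBrO3 arrays at 24 hr for both genes. For Slc4a3 it was 0.845 (adjusted p = 0.00014), while the second probe gave 0.71 with an adjusted p of 0.12. For Slc16a1 it was 0.82 (adjusted p = 0.00026), while the other probes gave 0.23 (adjusted p = 0.11) and −0.02 (adjusted p = 0.88). The Slc16a1 difference that goes with BPA also differed at 4 hr between cells with and without KBrO3, by −1.68 (adjusted p = 0.00026), with −0.16 in the former and 1.51 in the latter. On the other probes the former was 0.29 and 0.36. No outlier test was made within groups of 3 arrays.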

How the results depend on the processing

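The deposited table repeats the values used and no member probe had an outlier spot, so these 2 alternatives could change little. With no filter on dim probes, all 115 member values kept their direction and side of the threshold. Leaving out 1 array at a time ended 8 calls and made 11 among 1707 values, and turned the sign of 33 values, none called with or without the array. With normexp background correction fitted on all spots, 14 values turned sign, of which 6 were called before or after, namely Slc4a4 at 4 hr (−0.81 with KBrO3, −0.80 with co-exposure) and 24 hr (−1.89 and −1.77), and Car6 with KBrO3 at 24 hr (−0.35) and co-exposure at 4 hr (−0.53). Normexp started from the mean spot signal in the first set and from the median in the second. That fit put the background mean at −1150, −513 and −696 intensity units on 3 arrays and between −102 and 3.17 on the others. With the lowest 0.1% of spots left out, an alternative chosen after seeing the data, it lay between −17.1 and 7.92 and no called value turned sign. Scaling to array medians moved the median of all probes by 0.46 between co-exposure at 24 and 4 hr, by 0.32 between co-exposure at 24 hr and controls, and by less elsewhere, and Slc4a7 then differed by −0.42 between co-exposure at 24 and 4 hr and was not called.

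Counts of members called moved as follows, and the cause was not tested unless fewer members could pass by construction. At a Bonferroni p below 0.01 they were 1 for KBrO3 and 1 for co-exposure against controls at 4 hr, 2 for co-exposure against KBrO3 at 24 hr, 2 for KBrO3 and 4 for co-exposure between times, 2 for the change of the BPA difference, and 0 for BPA at 4 hr, at 24 hr and between times and for the contrast between sets at 4 hr. With no minimum fold they were 8 for co-exposure against controls and 3 against KBrO3 at 4 hr. With normexp they were 3 for co-exposure at 4 hr, with or without the lowest spots, 3 for KBrO3 between times and 0 for the 3 comparisons with BPA alone, and 1 for the contrast between sets at 24 hr without the lowest spots. Median scaling and the error-weighted fit each gave 1 for co-exposure against KBrO3 at 4 hr. Means over probes gave 2 for co-exposure against KBrO3 and 1 for the contrast between sets at 24 hr. Fitting only the groups compared, or all 24 arrays, gave 2 for BPA at 4 hr, and the latter 2 for the contrast between sets at 24 hr. Slide as a fixed block gave 0 for the 3 comparisons with BPA alone. With 1 array left out the counts ran from 0 to 1 for co-exposure against KBrO3 at 4 hr and the contrast between sets at 24 hr, from 3 to 4 for co-exposure against KBrO3 at 24 hr, and for BPA alone from 1 to 2 at 4 hr, 2 to 3 at 24 hr and 1 to 3 between times. For co-exposure against controls at 24 hr they ran from 4 to 5. Over all alternatives the counts against controls at 24 hr ran from 5 to 7 with KBrO3 and from 3 to 5 with co-exposure.

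Arrays with the same replicate number did not deviate together on average (mean r of −0.03 over 30 pairs and 0.00 over 9). Single pairs ran from −0.212 to 0.106 in the first set and from −0.384 to 0.648 in the second. With the number as a replicate block, 98 of 99 values kept their side of the threshold, and Slc16a3 with BPA at 24 hr (1.03) had an adjusted p of 0.069.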
